A study of Mus musculus with 6 samples.

Results

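The chemokines and chemokine receptors were followed here in mouse gastrocnemius, a hindlimb muscle of mostly fast fibers, as 52 genes of the 22180 that had a probe set of their own on the array. Members were chosen by name and not by value, as probe sets that the platform annotation gives 1 gene symbol starting with Ccl, Cxcl, Ccr or Cxcr and a digit, with Cx3cl1, Cx3cr1, Xcl1 and Xcr1 added. They comprise 34 ligand genes and 18 receptor genes. All had 1 such probe set except Ccl27a, which had 2, of which the one with the higher mean over the 6 arrays was used.

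The groups were transgenic and WT mice, with 3 male mice of 3 months in each group on a C57 background, and 1 Affymetrix Mouse Gene 2.0 ST array per mouse. Per the study's methods the transgenic mice were F1 offspring of C57BL/6 founders mated to WT mice, on a chow diet, and carried a porcine DGAT1 cDNA under a porcine MCK promoter, which is active in muscle. How many founder lines the 3 transgenic mice came from is not given in the sources used here. The characteristics in the sample labels instead call the genotype a DGAT1 knockout. The mouse Dgat1 probe set read 8.09, 7.65 and 7.73 on the log2 scale in the transgenic group and 7.96, 7.26 and 7.79 in the WT group. The fold change was 1.11 (95% confidence interval 0.765 to 1.62), so the signal of this probe set was not lost. Whether the probe set also reads the porcine transgene was not tested. All values are log2 expression values, on which a difference of 1 unit is a 2-fold change. The array medians lay between 5.71 and 5.88, and the mean of 6 muscle markers such as Acta1 and Ckm lay between 12.93 and 13.06 on every array. The mean of 8 hepatocyte markers such as Alb ranged from 4.30 in WT replicate 3 to 8.97 in WT replicate 1, with 4.58 to 8.91 in transgenic mice.

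Chemokines are small secreted proteins that guide the movement of leukocytes. They are grouped as CC, CXC, CX3C and C chemokines by the spacing of their first cysteines, and they act on membrane-spanning receptors that signal through G proteins. In skeletal muscle they are best known after injury, when CCL2 and its receptor CCR2 bring in monocytes, and ELR-type CXC chemokines acting on CXCR2 bring in neutrophils. CXCL12 and CXCR4 take part in the migration of muscle precursor cells, and CCR3 is the main chemokine receptor of eosinophils. A muscle homogenate holds RNA of fibers, vessels, connective tissue and leukocytes together, so a change in the number of a cell type and a change in RNA per cell cannot be told apart.

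One member, Ccr3, was higher in transgenic mice at the threshold of the study, which asks for at least a 1.5-fold difference and p below 0.05 before adjustment. The other members were not past it, and most differed little: 40 of the 52 had a log2 fold change of less than 0.25 in either direction. Calls from limma at this threshold were 1 of 52 members, compared with 1.49% of all 41345 probe sets and 0.574% of the 23521 probe sets with 1 gene symbol. A single call among 52 genes is near this background. No member had an adjusted p under 0.05 from limma (0.0% of all probe sets) or by the methods' t-test. With unadjusted p below 0.05 there were 2 members by limma, Ccr3 and Ccl1, where 2.9% of all probe sets were called, and 3 by the methods' t-test. The median log2 fold change of the members was 0.08, beside -0.01 for all probe sets, with 34 higher and 18 lower means in transgenic mice. Ligand genes had a median of 0.10 (25 of 34 higher) and receptor genes of 0.01 (9 of 18 higher).

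**Figure D1:**
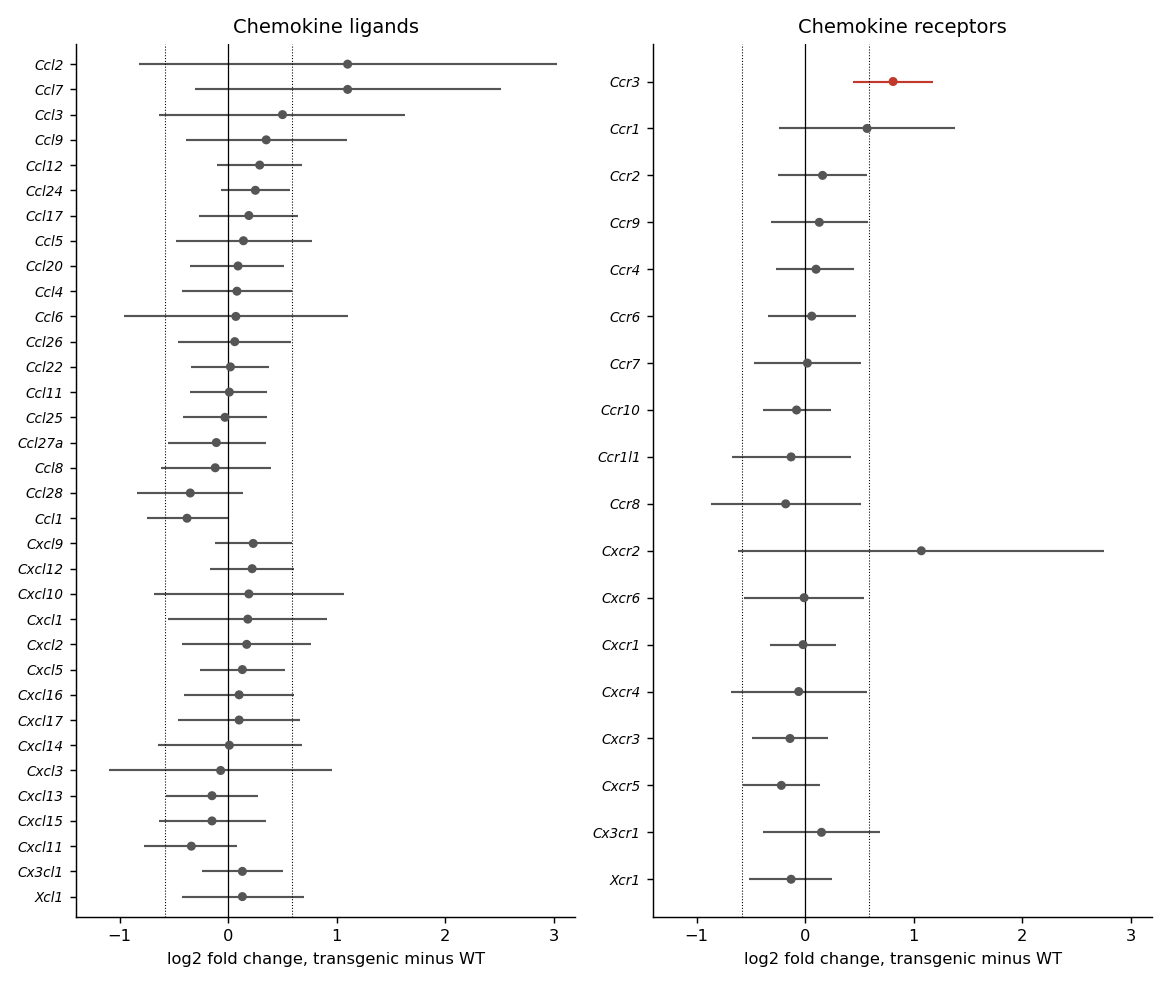
Log2 fold change (transgenic minus WT) of each of the 52 members, with ligands at left and receptors at right, ordered by family and then by size. Points are estimates from limma, bars their 95% confidence intervals, dotted lines a 1.5-fold change; red marks Ccr3, past the study threshold at 0.81, while the widest intervals belong to Ccl2, Ccl7 and Cxcr2.

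Ccr3, which encodes the receptor for eotaxins on eosinophils, read 4.61, 4.79 and 4.90 in the transgenic group (log2) and 3.82, 3.93 and 4.12 in the WT group. All 3 transgenic mice lay above all 3 WT mice, and the gap between the groups was wider than the spread within either. Group values were 4.77 ± 0.14 (SD, n = 3) against 3.96 ± 0.15 (SD, n = 3), a 1.75-fold difference with a 95% confidence interval of 1.36 to 2.26. The log2 fold change was 0.81 (standard error 0.16, unadjusted p = 0.00129 and adjusted p = 1 from limma). By an exact permutation test (two-sided) p was 0.1, the smallest that 3 mice against 3 allow. Every alternative that tested this probe set left Ccr3 past the study threshold, with log2 fold changes of 0.70 to 0.89 over 14 alternatives. Its probe set was dim, with all 6 values below 5.79, the median level of all probe sets, and it was not tested once dim probe sets were removed.

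The RefSeq promoter window of Ccr3 is shown because this gene carried the one call of the family. The window holds 300 bases of GRCm38.p6, chr9:124021721-124022020 on the plus strand, from 250 bases before to 50 bases after an annotated start. The annotated span of the gene begins upstream of it, and windows of other starts were not analysed. Capitals mark the letters of a kappaB motif (GGGANNNNCC, on the opposite strand, at position -179 from the start) and of an AP-1 motif (TGANTCA, at -144), which do not overlap.
Ccr3: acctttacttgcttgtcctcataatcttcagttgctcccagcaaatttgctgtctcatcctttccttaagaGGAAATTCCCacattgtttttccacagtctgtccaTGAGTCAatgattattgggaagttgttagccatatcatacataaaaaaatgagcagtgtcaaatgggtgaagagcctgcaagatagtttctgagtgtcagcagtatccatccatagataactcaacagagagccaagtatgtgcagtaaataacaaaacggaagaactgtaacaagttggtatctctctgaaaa
Both motifs were searched on both strands of all windows in the table. Of the 32851 windows 20.7% held the kappaB letters and 7.81% the AP-1 letters. Of the 42 windows of the 38 members with an entry, 42.9% held the first and 19.0% the second. Windows of the same gene can overlap, and a kappaB match of Ccl27a was counted in overlapping windows. The letters TATAAA and TTCNNNGAA were also searched. They were in 13.6% and 8.3% of all windows, and in 28.6% and 9.52% of the member windows. A match describes letters only, not a bound site. Ccl2, Ccl7, Ccl11 and Ccl24 are among the 14 members with no entry.

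No gene of a CCR3 ligand passed the threshold. Of the 6 genes Ccl5, Ccl7, Ccl8, Ccl11, Ccl24 and Ccl28, 0 were past the study threshold, 4 had higher and 2 had lower means in transgenic mice, and the median log2 fold change was 0.07. Ccl11, which encodes eotaxin-1, read 9.68, 10 and 9.78 in the transgenic group (log2) and 9.88, 9.82 and 9.74 in the WT group. The WT values lay inside the transgenic range, and the fold change of 1.0 had a 95% confidence interval of 0.785 to 1.28. Ccl24, which encodes eotaxin-2, had 6.24, 6.36 and 6.24 in transgenic mice and 6.09, 5.94 and 6.05 in WT mice. Its groups did not overlap, but the difference was 1.19-fold (95% confidence interval 0.955 to 1.48) and not past the threshold. The unadjusted p of Ccl24 was 0.104 from limma and 0.0127 by the methods' t-test. Ccl28, a mucosal chemokine that also acts on CCR10, had 5.28, 5.34 and 5.52 in transgenic mice and 5.40, 6.10 and 5.70 in WT mice. WT replicates 2 and 3 were above all transgenic ones, and WT replicate 1 was within their range. Ccl5, made by T cells and platelets among others, had 6.14, 6.24 and 6.55 against 5.61, 6.49 and 6.40, and turned from 0.14 to -0.14 without WT replicate 1. Ccl8, a ligand of several CC receptors, had 5.07, 5.52 and 5.81 against 5.69, 5.60 and 5.46, with the transgenic mice on both sides of the WT range.

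**Figure D2:**
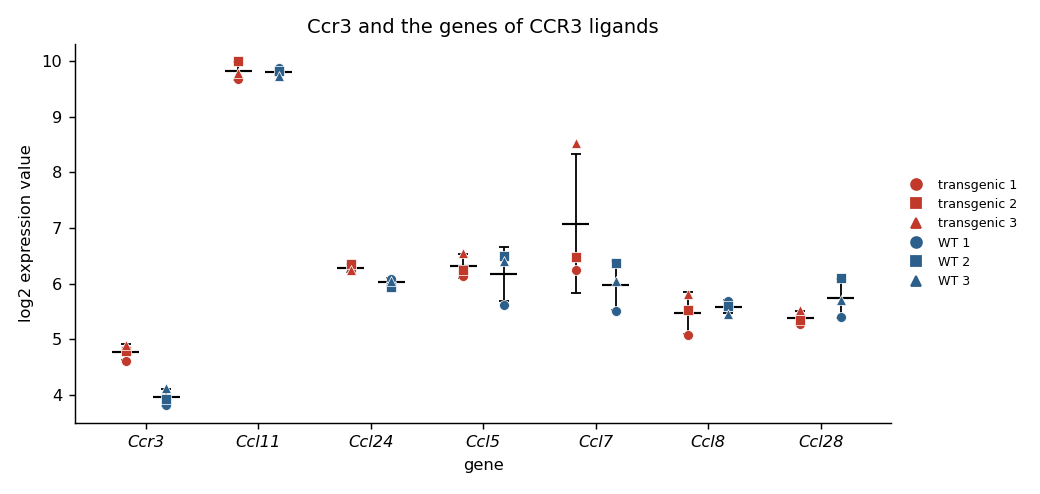
Log2 expression values of Ccr3 and of 6 genes of CCR3 ligands in each mouse (red transgenic, blue WT, marker shape by replicate number), with the group mean and SD in black. Ccr3 separates the groups at 4.61 to 4.90 against 3.82 to 4.12, Ccl11 overlaps, and Ccl7 is high in transgenic replicate 3 only, at 8.52.

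Eosinophil markers were measured beside Ccr3. Of the 6 listed, 4 had a probe set of their own (Siglecf, Epx, Prg2 and Il5ra), 0 were past the threshold, and their median log2 fold change was -0.09. Their mean was 5.08 to 5.18 in transgenic mice and 4.99 to 5.26 in WT mice, so it overlapped between the groups while Ccr3 did not. All 4 probe sets were dim, with 0 at or above the median level of all probe sets. A change in eosinophil number might therefore not show in them. Siglecf, which encodes a sialic acid-binding receptor of eosinophils, had a log2 fold change of 0.17, and Epx, the eosinophil peroxidase gene, of -0.16. Mast cells can also carry CCR3: of 5 mast cell markers 0 were past the threshold, with a mean of 6.43 to 6.71 in transgenic mice and 6.26 to 6.53 in WT mice. Of 8 macrophage markers 7 had higher means and 1, the lysosomal glycoprotein gene Cd68, was past the threshold, where 1.49% of all probe sets were. Its difference was 1.56-fold (95% confidence interval 1.06 to 2.29), with the highest value, 8.44, in transgenic replicate 3. In 3 of the 8 every transgenic mouse was above every WT mouse, where 2.9% of all probe sets were. The mean of the 8 markers was 7.61 to 8.06 in transgenic mice and 7.41 to 7.70 in WT mice. Whether leukocyte content has a part in the level of Ccr3 was not tested.

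On the RefSeq assembly Ccr3 lies in a run of receptor genes, with Cxcr6, Xcr1, Ccr1 and Ccr1l1 on one side and Ccr2 on the other. Its neighbors were not past the threshold. Ccr1l1, a gene related to Ccr1 in sequence, had a log2 fold change of -0.13 and Ccr2, the monocyte receptor, of 0.16. Ccr2 read 6.54, 6.53 and 6.74 in the transgenic group and 6.49, 6.66 and 6.19 in the WT group. Cxcr6 (-0.01) and Xcr1 (-0.13), further along the run, overlapped between the groups too.

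The 3 largest mean differences of the family rested mainly on 1 mouse. Ccl2, Ccl7 and Cxcr2 had fold changes of 2.15, 2.15 and 2.10, larger than that of Ccr3, yet none was past the threshold, and each had its highest value in transgenic replicate 3. Ccl2, the monocyte chemoattractant that acts on CCR2, read 6.31, 6.09 and 9.32 in the transgenic group (log2) and 6.08, 6.53 and 5.81 in the WT group. Transgenic replicates 1 and 2 lay within the WT range, and replicate 3 was 2.79 log2 units above the next highest mouse. The log2 fold change of 1.10 (standard error 0.82, 95% confidence interval of the fold change 0.564 to 8.17) became 0.06 without that mouse. Ccl7, which acts on CCR2 and CCR3, had 6.24, 6.47 and 8.52 in transgenic mice and 5.50, 6.37 and 6.04 in WT mice. Again replicate 3 stood alone, 2.05 above the next mouse, and the log2 fold change of 1.10 became 0.38 without it. Cxcr2, the main neutrophil receptor for ELR-type CXC chemokines, had 6.22, 6.38 and 9.03 against 6.03, 6.47 and 5.92, and its log2 fold change of 1.07 became 0.16 without replicate 3. Ccl3, which acts on CCR1, had 5.60, 5.29 and 7.23 against 5.67, 5.32 and 5.63, and turned from 0.50 to -0.09. Ccr1, a receptor of monocytes and neutrophils, had 4.84, 5.22 and 6.14 against 4.82, 5.13 and 4.55, and went from 0.57 to 0.20.

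**Figure D3:**
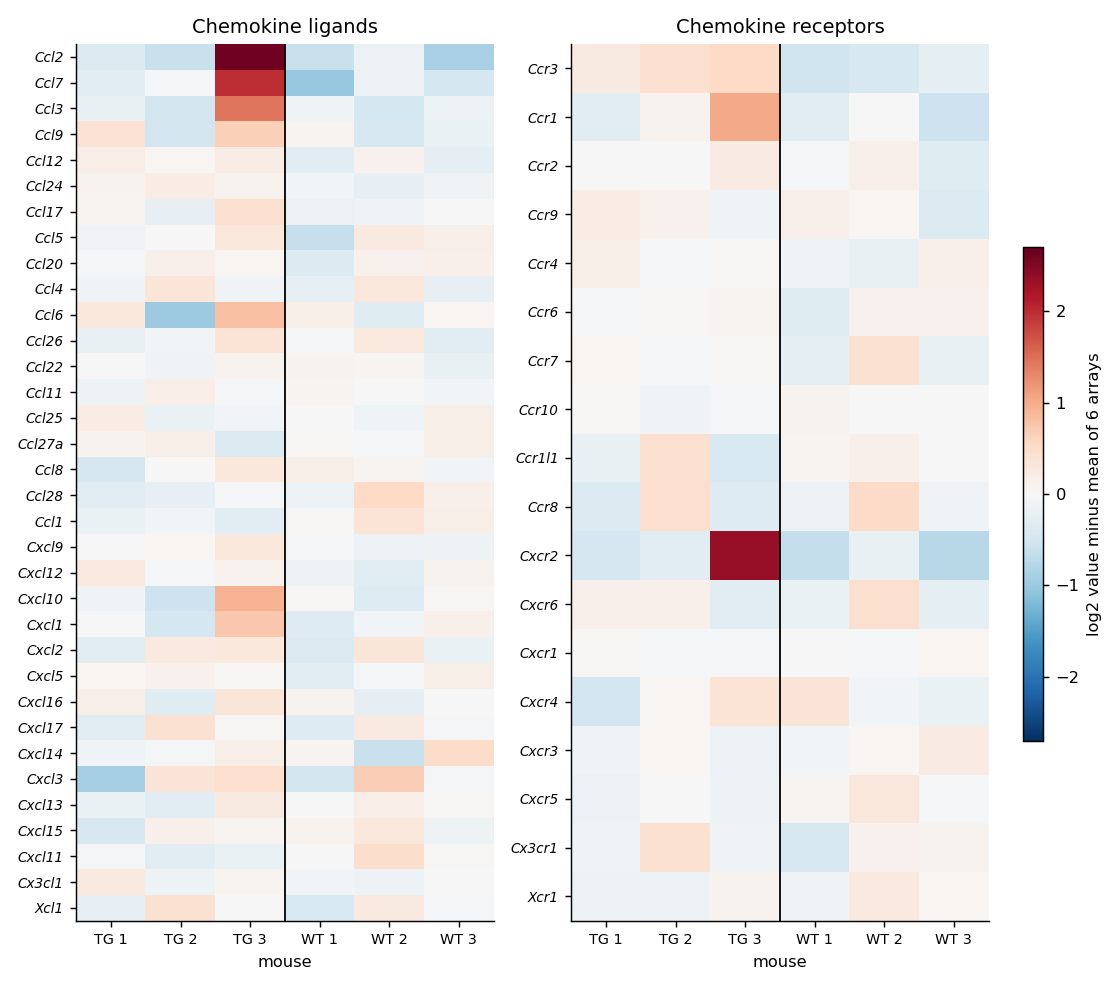
Heat map of the 52 members (rows, ligands left, receptors right) in the 6 mice (columns; TG transgenic), colored by log2 value minus the mean of the 6 arrays for that gene, red above and blue below. The TG 3 column holds the darkest red cells, Ccl2, Cxcr2, Ccl7 and Ccl3, whereas Ccr3 is red in all 3 transgenic mice and blue in all 3 WT mice.

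Of the 52 members, 4 (Ccl2, Ccl3, Ccl7 and Cxcr2) were at least 1 log2 unit higher in transgenic replicate 3 than in every other mouse. Among all probe sets 0.215% met this rule, which was set after the values were seen. None of the members met it in any of the other 5 mice. Transgenic replicate 3 held the highest value for 21 of the 52 members, against 11.6% of all probe sets. The mean over the members was 6.32 in this mouse and 5.88 to 6.07 in the other 5. Of 13 inflammatory CC ligand genes 8 were highest there. Elevation was not shared by all neighbors on the chromosome. Ccl2 and Ccl7 adjoin Ccl11 and Ccl12, where replicate 3 had 9.78, below transgenic replicate 2 and both WT replicates 1 and 2, and 4.34 beside 4.32 in transgenic replicate 1, and Cxcr2 adjoins Cxcr1, where it had 5.67 in a range of 5.65 to 5.75.

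Promoter windows are given for the members of this set that had an entry, together with Cxcl10, which was 0.90 above the next mouse in replicate 3. All are RefSeq windows of 300 bases of GRCm38.p6, from 250 before to 50 after an annotated start. They are Ccr1 at chr9:123968643-123968942 (minus strand), Cxcr2 at chr1:74153744-74154043 (plus strand), Ccl3 at chr11:83649329-83649628 (minus strand) and Cxcl10 at chr5:92348840-92349139 (minus strand). Capitals again mark kappaB letters (at -74 in Ccr1, and at -159 and -103 in Cxcl10) and AP-1 letters (at -74 in Cxcl10), counted from the annotated start.
Ccr1: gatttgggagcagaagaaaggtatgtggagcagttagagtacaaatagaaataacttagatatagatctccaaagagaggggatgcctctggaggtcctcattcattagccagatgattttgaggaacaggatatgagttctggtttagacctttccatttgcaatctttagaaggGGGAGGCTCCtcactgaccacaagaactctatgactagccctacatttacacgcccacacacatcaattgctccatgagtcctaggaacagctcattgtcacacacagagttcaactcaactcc
Cxcr2: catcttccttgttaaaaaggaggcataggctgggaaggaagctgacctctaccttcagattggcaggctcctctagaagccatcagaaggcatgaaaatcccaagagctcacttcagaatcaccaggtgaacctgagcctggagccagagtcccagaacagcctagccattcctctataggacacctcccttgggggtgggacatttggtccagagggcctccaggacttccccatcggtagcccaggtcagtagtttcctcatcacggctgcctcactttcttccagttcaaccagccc
Ccl3: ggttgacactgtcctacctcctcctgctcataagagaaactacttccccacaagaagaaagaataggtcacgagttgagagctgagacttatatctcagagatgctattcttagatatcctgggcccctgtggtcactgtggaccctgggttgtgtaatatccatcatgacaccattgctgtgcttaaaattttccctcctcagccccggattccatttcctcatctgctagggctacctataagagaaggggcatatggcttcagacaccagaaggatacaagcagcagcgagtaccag
Cxcl10: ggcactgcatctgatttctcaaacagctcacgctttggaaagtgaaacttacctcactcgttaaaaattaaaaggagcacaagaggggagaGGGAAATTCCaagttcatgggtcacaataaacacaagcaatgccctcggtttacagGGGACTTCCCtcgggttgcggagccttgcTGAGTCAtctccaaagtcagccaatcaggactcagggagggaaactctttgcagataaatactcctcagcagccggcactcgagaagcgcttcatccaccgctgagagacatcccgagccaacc
The windows of Cxcr2 and Ccl3 held neither motif, and that says nothing of the factors that may act elsewhere on these genes.

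Genes outside the family were high in the same mouse. These were looked up after the values of the members had been seen. Il1b, which encodes the cytokine interleukin 1 beta, had 8.98 in transgenic replicate 3 and 4.62 to 5.20 in the other 5 mice. Il6, which encodes interleukin 6, had 6.71 there and 3.37 to 4.12 in the others. In both genes the other 5 mice lay together and far below this mouse. Of 6 neutrophil markers 4 were highest in this mouse. The calprotectin gene S100a8 had 6.96 against 3.62 to 4.47 in the other 5 mice, and S100a9 had 6.75 against 4.62 to 5.56. Retnlg had 6.38 against 4.4 to 4.75. Ly6g was only slightly higher, at 5.33 against 4.61 to 5.17. The granule genes Mpo (5.42) and Elane (5.64) were within the range of the other mice. The list's mean was 6.08 in transgenic replicate 3, 4.89 and 4.94 in the other transgenic mice, and 4.87 to 5.13 in WT mice. The mean of 12 immediate early genes, which respond quickly to many stimuli, was also highest there, at 8.5 against 7.30 to 7.89. All 12 had higher transgenic means, and 10 of them were highest in transgenic replicate 3. None had an adjusted p under 0.05 from limma. Past the study threshold, where 1.49% of all probe sets were, lay 2: the phosphatase gene Dusp1 (1.7-fold) and the nuclear receptor gene Nr4a1 (1.72-fold). Both were highest in transgenic replicate 1, and neither overlapped between the groups. The hepatocyte marker mean was 8.91 in this mouse, and 8.97 in WT replicate 1, where Ccl2, Ccl7 and Cxcr2 read 6.08, 5.50 and 6.03. Whether neutrophil content, hepatocyte RNA, or whatever moved the immediate early genes, has a part in the levels of Ccl2, Ccl7, Ccl3 and Cxcr2 was not tested.

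**Figure D4:**
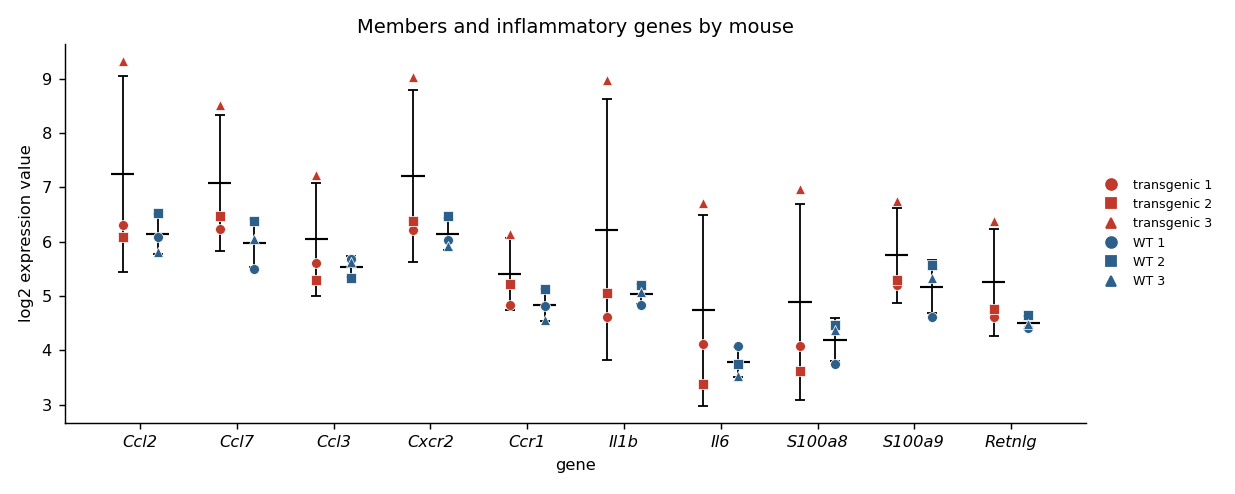
Log2 expression values in each mouse (red transgenic, blue WT, marker shape by replicate number, mean and SD in black) of 5 members, 2 cytokine genes and 3 neutrophil genes. In each gene the red triangle, transgenic replicate 3, is the highest point, from 6.14 for Ccr1 to 9.32 for Ccl2.

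Left-out mice separated these patterns. Without transgenic replicate 3, Ccr3 was the 1 member past the study threshold, with a log2 fold change of 0.74, where 1.77% of all probe sets were called. Without transgenic replicate 1, 3 members were past it, Ccr3, Ccl7 and Ccr1, beside 2.22% of all probe sets. Without transgenic replicate 2 there were 2, Ccr3 and Ccl9, beside 2.06% of all probe sets. Ccl9, a CCR1 ligand of mice, had 7.98, 7.09 and 8.23 in transgenic mice and 7.67, 7.15 and 7.42 in WT mice.

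**Figure D5:**
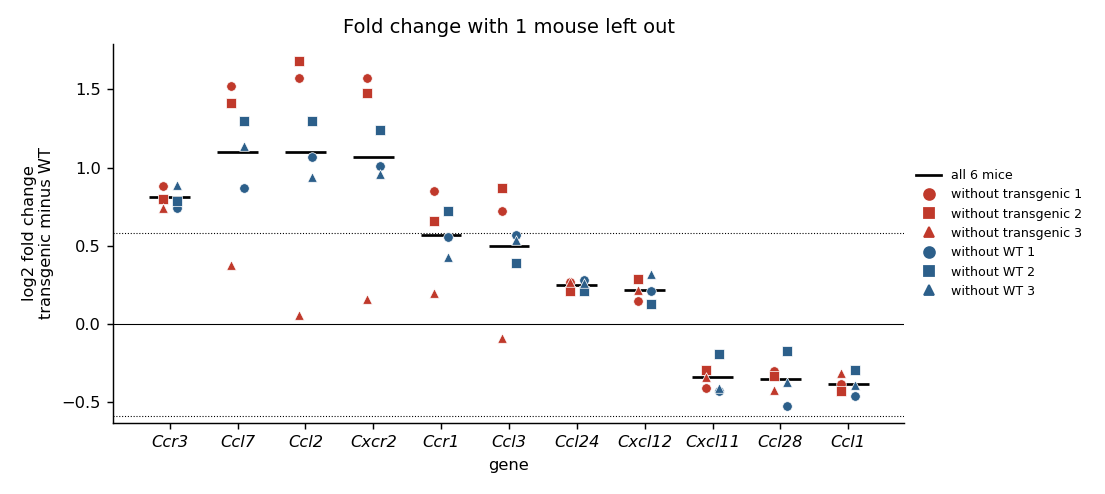
Log2 fold change (transgenic minus WT) of 11 members over all 6 mice (black bar) and with 1 mouse left out (red a transgenic mouse, blue a WT mouse, marker shape by replicate number); dotted lines mark a 1.5-fold change. Ccr3 stays at 0.74 to 0.89, while Ccl2, Cxcr2 and Ccl3 drop to 0.06, 0.16 and -0.09 without transgenic replicate 3.

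Among the members with lower means, none passed the threshold. Ccl1, a ligand of CCR8, read 4.85, 4.96 and 4.72 in the transgenic group (log2) and 5.06, 5.40 and 5.20 in the WT group. All transgenic mice were below all WT mice, at 0.771 of the WT level (95% confidence interval 0.596 to 0.996), short of the fold minimum. Ccr8, its receptor on T cells, had a log2 fold change of -0.18 with values of 4.71 to 5.54 in transgenic and 4.93 to 5.60 in WT mice, and turned to 0.04 without WT replicate 2. Cxcl11, an interferon-induced ligand of CXCR3, had 5.74, 5.49 and 5.60 against 5.77, 6.26 and 5.82. Its groups did not overlap either, but the gap between the highest transgenic and the lowest WT mouse was small beside the spread. Cxcl9, induced by the same stimulus and acting on the same receptor, went the other way, with 6.72, 6.79 and 7.04 in transgenic mice above 6.69, 6.57 and 6.59 in WT mice (log2 fold change 0.23, not past the threshold). Cxcl10, the remaining ligand of CXCR3, had 5.42, 4.96 and 6.45 against 5.55, 5.17 and 5.55, and Cxcr3 itself had a log2 fold change of -0.14. The B cell chemokine gene Cxcl13 had 7.04, 6.94 and 7.46 against 7.24, 7.40 and 7.26, and the gene of its receptor, Cxcr5, had 5.45, 5.60 and 5.48 against 5.69, 5.92 and 5.57. Both overlapped between the groups, with log2 fold changes of -0.15 and -0.22.

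Groups without overlap are counted for the family in full. In 3 members (Ccr3, Ccl24 and Cxcl9) every transgenic mouse was above every WT mouse, where 2.9% of all probe sets were, and in 2 members (Ccl1 and Cxcl11) every transgenic mouse was below, where 4.31% of all probe sets were. With 52 members these counts are near the background.

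Chemokine pairs known for roles in muscle and its macrophages showed no call. Cxcl12, whose product retains and guides CXCR4-bearing cells, read 10.11, 9.82 and 9.96 in the transgenic group (log2) and 9.72, 9.58 and 9.94 in the WT group, a 1.16-fold difference (95% confidence interval 0.892 to 1.52). Cxcr4 had 6.93, 7.49 and 7.82 against 7.78, 7.36 and 7.27, and the sign of its log2 fold change of -0.06 turned when transgenic replicate 1 (0.18) or WT replicate 1 (0.10) was left out. Neither gene separated the groups. Cx3cl1, the membrane-bound fractalkine, had 6.19, 5.79 and 5.99 against 5.85, 5.79 and 5.93, and its receptor on monocytes and macrophages, Cx3cr1, had 6.95, 7.47 and 6.96 against 6.62, 7.16 and 7.15. For Cx3cr1 the groups overlapped, with log2 fold changes of -0.04 to 0.24 over 15 alternatives.

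None of the remaining members was past the threshold. Among the 5 members that encode ELR-type CXC ligands, log2 fold changes were 0.18 for Cxcl1, 0.17 for Cxcl2, -0.07 for Cxcl3, 0.13 for Cxcl5 and -0.15 for Cxcl15. Of these 0 were past the threshold. Ppbp (CXCL7), also of this type but not a member by name, is given with the platelet genes. Cxcr2 itself was high in transgenic replicate 3 only. Cxcl1 was highest in transgenic replicate 3, at 6.31 beside 5.11 to 5.72 in the other mice. Cxcl14, a homeostatic chemokine, had values of 9.34 to 10.44 with both extremes in WT mice. Ccl6, a CC ligand of mice, had 7.62, 6.36 and 8.15 in transgenic mice and 7.5, 7.02 and 7.40 in WT mice, so the transgenic mice spread over the whole WT range. Ccl17 (0.19) and Ccl22 (0.02), ligands of CCR4, and Ccr4 (0.10) differed little, as did Ccl20 (0.09) and Ccr6 (0.06), Ccl25 (-0.03) and Ccr9 (0.13), and Xcl1 (0.13) and Xcr1 (-0.13). These pairs of ligands and receptors act in T cell and dendritic cell traffic. The last members, Ccl4 (0.08), Ccl12 (0.29), Ccl26 (0.06), Cxcl16 (0.10), Cxcl17 (0.10) and Ccr10 (-0.08), overlapped between the groups as well. Of the 5 measured T cell markers 0 were past the threshold, and of the 4 measured dendritic cell markers 0.

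Ccl19 and Ccl21, the ligands of CCR7 that guide cells into lymph nodes, were not members, since their probe sets list several near-identical genes. Of the 33 probe sets that list a family gene together with other symbols, 13 list Ccl19, 9 list Ccl21 genes and 11 list Ccl27 genes, and the 33 hold 23 different sets of values. None was past the study threshold, and their log2 fold changes lay between -0.14 and 0.31. Ccr7 itself, with 1 symbol, had a log2 fold change of 0.02. The dimmer probe set of Ccl27a, the ligand of CCR10 from skin, had a log2 fold change of 0.34 where the brighter one had -0.11, and neither was past the threshold.

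Other parts of the chemokine system were given by lists. Of 8 atypical and related receptors, several of which bind chemokines without G protein signaling, 6 had higher means and 0 were past the threshold, with Ackr1 at 0.33 and Ackr3 at 0.16. Of 23 genes of signaling downstream of the receptors, such as the G protein subunit gene Gnai2 (0.15) and the kinase gene Pik3cg (0.23), 17 had higher means and 0 were past the threshold, and the median log2 fold change was 0.08. Platelet chemokine genes carry other names: Pf4 (CXCL4) had 7.64, 7.37 and 7.54 in transgenic mice and 7.18, 6.83 and 7.09 in WT mice, without overlap. The difference was 1.4-fold (95% confidence interval 1.08 to 1.83), short of the fold minimum. Ppbp (CXCL7) had a log2 fold change of 0.62, with values of 6.39 to 8.24 in transgenic and 6.31 to 7.42 in WT mice. Of 13 inducers of chemokine transcription, such as Tnf (0.17), Rela (0.23) and Ifng (-0.16), 0 were past the threshold, and their largest log2 fold changes, 1.18 for Il1b and 0.96 for Il6, rest on transgenic replicate 3 as described.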

How the data were processed

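The authors hybridized gastrocnemius RNA of 3 transgenic and 3 WT mice to 1 Affymetrix Mouse Gene 2.0 ST array each. The deposited values are log2 expression values per probe set, which the authors normalized before deposit; the submitters' processing notes name RMA and the methods name GCOS and GeneSpring. No detection calls or probe signals were used here, and the number of arrays limits the precision. Differences of dim probe sets may be understated. Gene symbols came from the platform annotation, and 1820 probe sets with several symbols and 16004 with none were not named. Transgenic and WT mice were compared by limma 3.58.1 (R 4.3.3; lmFit, eBayes) over all 41345 probe sets, with p-values adjusted over all of them by Benjamini-Hochberg. The study threshold is a difference of at least 1.5-fold with p below 0.05 before adjustment. The script was tested on simulated data.

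Members named with values are those past the study threshold or with an unadjusted p under 0.05, the 6 largest rises and the 6 largest falls, the 4 with the widest range, the ligands and receptors that pair with the first of these, and CXCL12, CXCR4, CX3CL1 and CX3CR1; of other lists, genes past the study threshold and markers of cells that carry CCR3. Other genes and members were described after their values were seen. The members and lists were chosen with earlier results of these data known. Alternatives were the methods' t-test, limma with a trend and robust prior, arrayWeights, quantile normalization, other sets of probe sets, the mean of all probe sets of a gene, a replicate block, and leaving out arrays. Promoter windows are from RefSeq (GRCm38.p6), with members matched by symbol and gene ID (38 of 52). Mice of a group are labelled as biological replicates.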

Additional observations from a re-analysis of the deposited data

How the results depend on the processing

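The count of members past the study threshold was 1 in all settings but 4: it was 5 with arrayWeights (Ccr3, Ccl2, Ccl7, Ccr1 and Cxcr2), where 6.31% of all probe sets were past it against 1.49% as reported, 0 without probe sets below the median level (0.706%), where 24 members remained and Ccr3 was not tested, and 1 to 3 with 1 mouse left out (1.77% to 3.23%). No setting gave a member with an adjusted p under 0.05, and the lowest was 0.212 with arrayWeights, which gave weights of 0.3699 to 5.15 and the largest to WT replicate 3. The 5 members whose groups do not overlap (9.62%, beside 7.21% of all probe sets) became 2 without dim probe sets (8.33% beside 6.85%), 8 to 16 with 1 mouse left out and 23 without transgenic replicate 2 and WT replicate 2 (44.2% beside 34.3%). With 1 mouse left out the share of all probe sets was 13.4% to 23.5%, and the 16 members, without transgenic replicate 2, were 30.8% beside 16.1%. The median log2 fold change, 0.08 as reported, was 0.01 without WT replicate 1 and 0.02 without transgenic replicate 3. Without WT replicate 2 it was 0.14. Each move was below 0.149, the SD between arrays within a group of the mean over members, averaged over the groups. That SD is larger than the reported median itself, so it is a wide yardstick.

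With arrayWeights Ccl2 (1.80), Ccl7 (1.33), Cxcr2 (1.61) and Ccr1 (0.93) were past the threshold, and the signs of Ccl8 (0.03), Cx3cr1 (-0.04) and Cxcr4 (0.16) turned. Leaving out 1 mouse turned the sign of Ccl11 (range -0.09 to 0.08), Ccl3 (-0.09 to 0.87), Ccl5 (-0.14 to 0.31), Ccl8 (-0.29 to 0.08), Ccr8 (-0.45 to 0.04), Cx3cr1 (-0.03 to 0.24) and Cxcr4 (-0.26 to 0.18). Without transgenic replicate 2 and WT replicate 2, Ccl11 was -0.09 and Ccl5 0.34. The cause was not tested.

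Same-numbered arrays had correlations of deviations from the group means of 0.331, 0.396 and -0.166. With 3 mice in a group these deviations depend on each other, so they do not settle whether replicate numbers pair the mice. With the replicate block 1 member, Ccr3, was past the threshold, and over all probe sets the count went from 618 to 921. Transgenic replicates 1 and 2 correlated best with the WT array of their own number, but transgenic replicate 3 did so with WT replicate 1 (0.175).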
